A study of Mus musculus with 6 samples.

Results

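The 9 transcription factors described here, Gata1, Gata2, Zfpm1, Tal1, Lyl1, Lmo2, Klf1, Nfe2 and Gfi1b, direct the formation of red cells, megakaryocytes and related blood lineages. They were taken as a named list, and every probe set that the platform annotation gives to them was used. The annotation gave 11 probe sets to the 9 genes, out of 45037 probe sets tested and 18193 genes measured. Gata2 and Zfpm1 had 2 probe sets each and the other 7 genes had 1. For genes with several probe sets, the brightest on average over the 6 arrays stands for the gene unless another is named.

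The arrays compared splenic T cells, isolated by depleting other cells, from male C57BL/6 mice aged 10 weeks. There were 3 miR-142 KO mice and 3 WT littermates, with 1 array per mouse. The labels give the knockout as miR-142 KO with no further description of the allele, so whether the microRNA was lost in every tissue is not given in the sources used here. Values are log2 probe-set intensities after RMA, a procedure that corrects background, equalises the distributions of the arrays and summarises the probes of a probe set. Such values carry no detection call.

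GATA1 and GATA2 are zinc finger proteins that bind GATA motifs. GATA2 acts in stem and progenitor cells and in mast cells, and GATA1 replaces it at many of the same sites as red cells mature, together with its cofactor FOG1, the product of Zfpm1. TAL1 and its relative LYL1 are basic helix-loop-helix proteins that pair with E proteins. LMO2 joins them to GATA factors without touching DNA itself. KLF1 binds CACCC boxes of red cell genes, NFE2 pairs with small MAF proteins at globin and platelet genes, and GFI1B is a repressor that brings LSD1 and CoREST to its sites. GATA1, GATA2 and TAL1 also act in mast cells, and GATA1 in eosinophils.

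The microRNA that the KO mice lack and the start sites of the factor genes with the motifs of the factors themselves are shown for reference. Mature sequences are from RefSeq (GRCm38.p6, chr11:87756867-87756887 and chr11:87756903-87756925, plus strand), with the seed, bases 2 to 8, in capitals.
mmu-miR-142a-5p: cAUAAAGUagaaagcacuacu
mmu-miR-142a-3p: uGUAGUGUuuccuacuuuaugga

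RefSeq start-site windows of 300 bases, from 250 before to 50 after a start, were matched for 7 of the 9 factors, with 9 windows in all because Gata2 and Tal1 have 2 each. The 4 windows printed here are those of Tal1, Klf1 and Gfi1b, which held both motifs, and of Gata1. They lie at chr4:115056176-115056475 (plus strand) for Tal1, chr8:84901732-84902031 (plus strand) for Klf1, chr2:28621933-28622232 (minus strand) for Gfi1b and chrX:7967861-7968160 (minus strand) for Gata1, all GRCm38.p6. Capitals mark a GATA motif (AGATAA or AGATAG or TGATAA or TGATAG) or a CACCC box (CACCC), each searched on both strands.
Tal1: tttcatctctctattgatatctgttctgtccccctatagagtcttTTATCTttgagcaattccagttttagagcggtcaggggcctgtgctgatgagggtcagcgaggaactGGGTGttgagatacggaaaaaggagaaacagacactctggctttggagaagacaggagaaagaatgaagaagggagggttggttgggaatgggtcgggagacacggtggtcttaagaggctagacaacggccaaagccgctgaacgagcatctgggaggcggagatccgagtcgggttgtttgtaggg
Klf1: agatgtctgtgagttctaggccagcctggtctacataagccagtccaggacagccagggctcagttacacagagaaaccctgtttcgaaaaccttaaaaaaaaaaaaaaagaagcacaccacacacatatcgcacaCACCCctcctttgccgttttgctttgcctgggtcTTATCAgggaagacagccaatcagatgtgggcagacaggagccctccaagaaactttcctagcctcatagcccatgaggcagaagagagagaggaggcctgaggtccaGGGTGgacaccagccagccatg
Gfi1b: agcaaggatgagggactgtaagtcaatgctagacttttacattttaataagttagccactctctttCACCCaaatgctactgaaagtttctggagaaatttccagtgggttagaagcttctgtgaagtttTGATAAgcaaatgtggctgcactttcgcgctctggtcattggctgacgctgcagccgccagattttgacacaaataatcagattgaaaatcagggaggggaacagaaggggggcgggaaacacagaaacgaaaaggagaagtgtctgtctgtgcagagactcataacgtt
Gata1: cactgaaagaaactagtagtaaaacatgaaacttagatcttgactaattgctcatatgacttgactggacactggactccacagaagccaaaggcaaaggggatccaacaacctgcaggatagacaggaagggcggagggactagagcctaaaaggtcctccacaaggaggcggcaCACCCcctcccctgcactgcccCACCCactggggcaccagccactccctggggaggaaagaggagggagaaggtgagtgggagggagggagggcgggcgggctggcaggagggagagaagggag

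In Klf1 the GATA motif starts 80 bases before the start site and lies between CACCC boxes, and an E-box (CAGATG, searched on both strands) starts 59 bases before it. In Gfi1b the GATA motif starts 120 bases before the start, and in Tal1 205 bases before it. In the Gata1 window CACCC boxes start 74 and 52 bases before the start and none of the GATA letters searched was found. Of the 9 windows, 3 held a GATA motif, against 29.8% of all 32851 windows, and 7 held a CACCC box, against 57.5%. Both motifs stood together in 3 of the 9 windows, against 14.9% of all windows. The E-box was found in 2 of the 9 windows, against 17.2%, and the NF-E2 motif (TGAGTCA, both strands) in 0 of the 9, against 5.2%. A match describes letters in the window and is not evidence of binding.

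All 9 factors rose in KO, by 1.90-fold for Zfpm1 to 9.94-fold for Lyl1, and 8 of the 9 rose at least 4-fold. Of 18193 genes 470, or 2.58%, had a larger difference than Gata1, the smallest of those 8, and 9.24% a larger one than Zfpm1. Rose and fell stand throughout for a limma adjusted p below 0.05, with the Benjamini-Hochberg adjustment over all 45037 probe sets. Of the 11 probe sets 10 rose, against 13.9% of all probe sets, and all 11 differences were positive. Of all probe sets 15.5% fell. Counted by gene, 18.6% of the 18193 genes rose and 18.6% fell. The genotypes did not overlap in any of the 11 probe sets, with the KO arrays on top. Non-overlap in that direction was seen in 18.5% of all probe sets, and in the opposite direction in 27.4%. The median difference of the 9 factors was 2.52 on the log2 scale, beside -0.06 for all genes. T cell transcripts went the other way in the same arrays: 12 of 12 measured T cell markers fell, with a median of -1.80. Under hybridization-control scaling 11 of the 12 fell, with a median of -1.44, and Cd27 (-0.74) lost its call. With that scaling 2337 of the 45037 probe sets fell. Dropping WT replicate 1 ended the calls of Cd3e (-1.59) and Cd27 (-1.11), and dropping WT replicate 2 (-1.09) or 3 (-1.11) that of Cd27. In bulk RNA a change in the share of a cell type and a change in RNA per cell cannot be told apart.

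**Figure D1:**
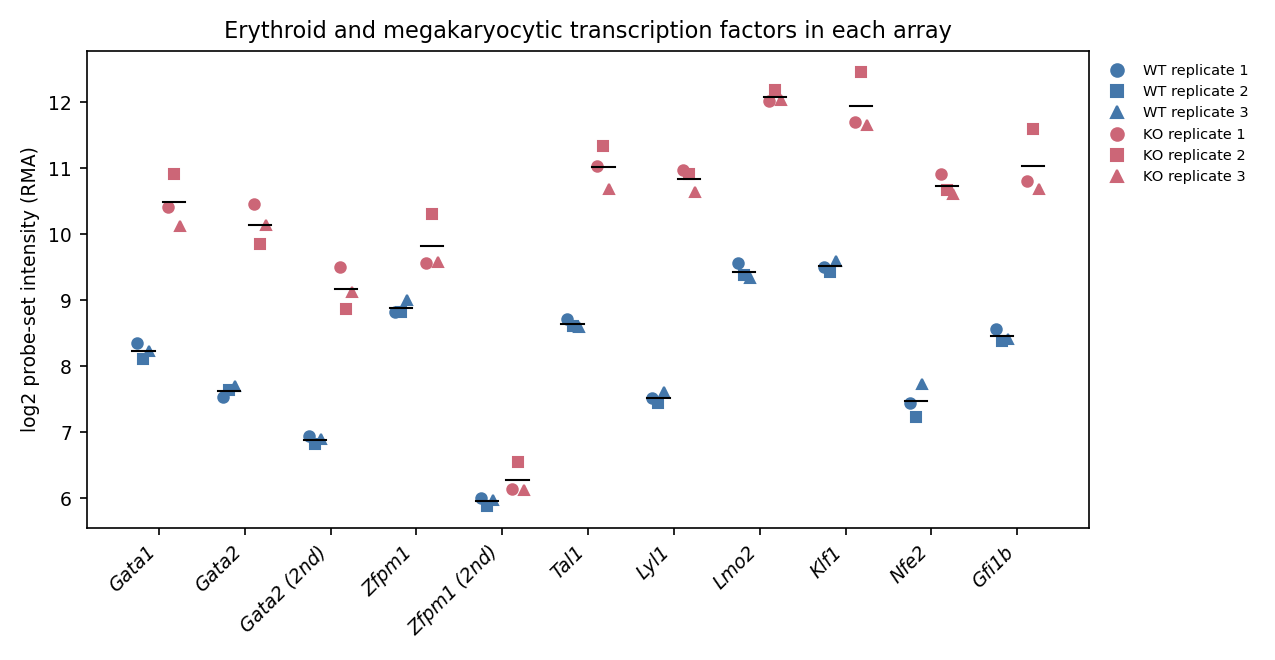
Log2 RMA intensity (vertical axis) of each of the 11 probe sets in each of the 6 arrays; colour gives the genotype, the marker shape the replicate number and the black line the mean of 3 arrays, and "(2nd)" marks the dimmer probe set of a gene. All KO points lie above all WT points for every probe set, with the narrowest gap at the second probe set of Zfpm1 (0.12) and the widest at Lyl1 (3.02).

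Gata1, the central activator of red cell and megakaryocyte genes, read 8.35, 8.11 and 8.23 in WT replicates 1, 2 and 3 and 10.42, 10.91 and 10.13 in KO replicates 1, 2 and 3. The lowest KO array stood 1.78 above the highest WT array. Gata1 rose 4.79-fold, a log2 difference of 2.26 ± 0.19 (SE, n = 3 per group; limma adjusted p = 1.9e-04). KO replicate 2 was the highest KO array.

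Gata2, the GATA factor of progenitors and mast cells, read 7.54, 7.64 and 7.71 in WT and 10.46, 9.85 and 10.14 in KO at its brighter probe set, in replicate order. Here KO replicate 2 was the lowest KO array, the reverse of its place for Gata1. Gata2 rose 5.74-fold, by 2.52 ± 0.16 (SE, n = 3 per group; limma adjusted p = 6.1e-05). Its dimmer probe set read 6.94, 6.82 and 6.90 in WT and 9.50, 8.87 and 9.12 in KO and rose by 2.28 ± 0.16 (limma adjusted p = 8.9e-05), with the KO arrays in the same order. Both Gata2 probe sets thus gave the same direction and a difference of similar size.

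Zfpm1, which encodes the GATA cofactor FOG1, read 8.83, 8.83 and 9.003 in WT and 9.56, 10.31 and 9.58 in KO. The groups did not overlap, but KO replicate 2 stood well above the other KO arrays. Zfpm1 rose 1.90-fold, by 0.93 ± 0.20 (SE, n = 3 per group; limma adjusted p = 0.012), the smallest rise of the 9. Without KO replicate 2 the difference was 0.69. The dimmer probe set of Zfpm1 read 6.01, 5.88 and 5.97 in WT and 6.14, 6.55 and 6.13 in KO. Its difference of 0.32, with a 95% confidence interval of 0.02 to 0.62, did not pass the threshold (limma adjusted p = 0.109), and it rose when arrays were scaled to their hybridization controls. The probe sets of Zfpm1 therefore differed in call.

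Among the helix-loop-helix factors, Tal1 read 8.72, 8.61 and 8.60 in WT and 11.04, 11.33 and 10.69 in KO. It rose 5.20-fold, by 2.38 ± 0.16 (SE, n = 3 per group; limma adjusted p = 8.1e-05). Lyl1, its relative, read 7.52, 7.45 and 7.62 in WT and 10.97, 10.92 and 10.64 in KO. Lyl1 showed the largest rise of the 9, 9.94-fold or 3.31 ± 0.11 (limma adjusted p = 1.1e-05), and its KO arrays lay within 0.34 of each other. Of 18193 genes 131 had a larger difference than Lyl1, which is 0.720%, while 399 had a larger one than Tal1, or 2.19%.

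Lmo2, the bridging subunit of the TAL1 complex, read 9.57, 9.39 and 9.35 in WT and 12.02, 12.18 and 12.04 in KO. It rose 6.26-fold, by 2.65 ± 0.10 (SE, n = 3 per group; limma adjusted p = 1.3e-05). Its KO arrays differed by 0.16 from lowest to highest, the narrowest KO range of the 9 factors, and less than its own WT range of 0.23.

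Klf1, the activator of adult globin and red cell membrane genes, read 9.51, 9.43 and 9.60 in WT and 11.71, 12.45 and 11.66 in KO. It rose 5.37-fold, by 2.42 ± 0.21 (SE, n = 3 per group; limma adjusted p = 2.1e-04). Gfi1b, the repressor needed for red cell and platelet maturation, read 8.56, 8.39 and 8.42 in WT and 10.81, 11.60 and 10.68 in KO. Gfi1b rose 5.96-fold, by 2.57 ± 0.23 (limma adjusted p = 2.3e-04), and had the widest KO range, 0.92. In both genes KO replicate 2 stood apart above KO replicates 1 and 3, which were close to each other. Without KO replicate 2 the differences were 2.17 for Klf1 and 2.29 for Gfi1b.

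Nfe2, the leucine zipper factor of globin and platelet genes, read 7.45, 7.23 and 7.74 in WT and 10.92, 10.67 and 10.61 in KO. It rose 9.57-fold, by 3.26 ± 0.15 (SE, n = 3 per group; limma adjusted p = 2.4e-05). Its WT arrays spread over 0.51, the widest WT range of the 9, but lay 2.87 below the lowest KO array. Lyl1 and Nfe2 thus had the largest rises, and the other factors apart from Zfpm1 lay between 2.26 and 2.65.

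**Figure D2:**
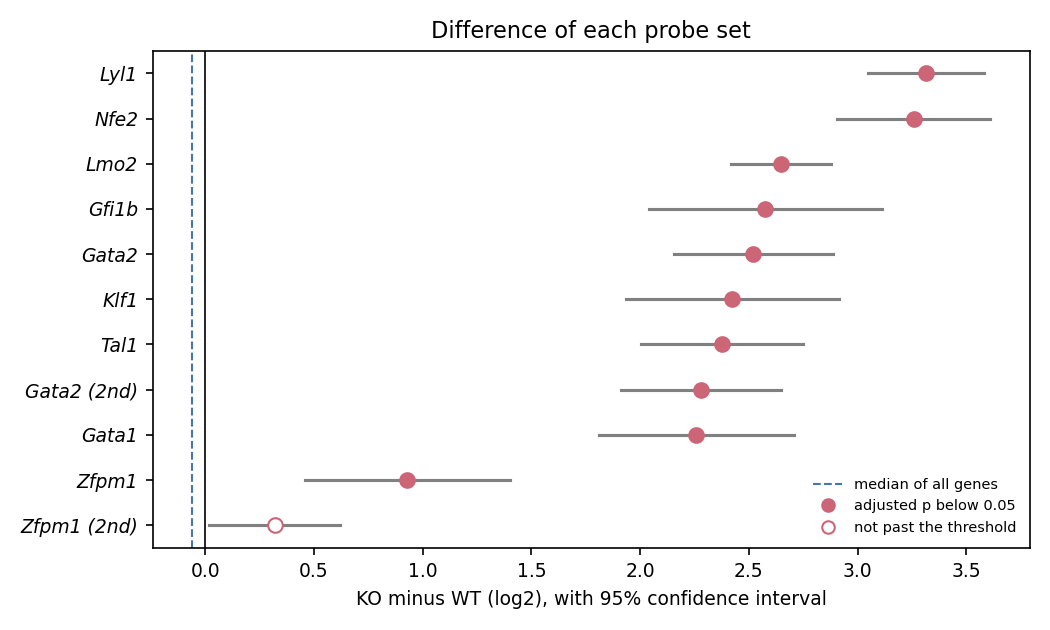
KO minus WT difference on the log2 scale (horizontal axis) of each of the 11 probe sets, with the 95% confidence interval from limma as a bar; filled points passed the adjusted p threshold and the dashed line marks the median of all genes (-0.06). The interval of Lyl1 (3.05 to 3.58) lies above that of Gata1 (1.81 to 2.71), and the lower 2 rows are the probe sets of Zfpm1.

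Ratios between factors within an array show whether they rose by unequal amounts. For 7 pairs, the change of the log2 ratio was tested with an exact two-sided permutation test over the 6 arrays, which cannot give a p below 0.10 for 3 against 3, so these comparisons cannot pass 0.05. Zfpm1 minus Gata1 was 0.48, 0.72 and 0.77 in WT and -0.85, -0.61 and -0.55 in KO. This ratio fell by 1.33, so the cofactor transcript rose 2.51-fold less than Gata1 did, with no overlap of the groups (exact permutation p = 0.10, and 0.14 adjusted over the 7 pairs). Tal1 minus Lyl1 was 1.20, 1.17 and 0.98 in WT and 0.06, 0.42 and 0.06 in KO. It fell by 0.94, again without overlap (exact permutation p = 0.10, adjusted 0.14). Nfe2 minus Gata1 was higher by 1.00 in KO, from -0.76 ± 0.23 (SD, n = 3) in WT to 0.24 ± 0.42, also without overlap (exact permutation p = 0.10, adjusted 0.14).

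The other pairs changed less. Gata1 minus Gata2 was 0.81, 0.46 and 0.52 in WT and -0.05, 1.06 and 0.00 in KO, so KO replicate 2 lay above every WT array and the other KO arrays below. Its mean difference of -0.26 was smaller than the KO spread of 0.63 (SD, n = 3; exact permutation p = 0.60, adjusted 0.60), and it ranged from -0.62 without KO replicate 2 to -0.07 without KO replicate 1. It was -0.09 without KO replicate 3, -0.15 without WT replicate 1 and -0.14 with the probe sets of Gata2 averaged. Klf1 minus Gata1 differed by 0.17 with overlapping groups (exact permutation p = 0.30, adjusted 0.35). Gfi1b minus Gata1 differed by 0.32 and Lmo2 minus Tal1 by 0.27, both higher in KO without overlap (exact permutation p = 0.10 and adjusted 0.14 for each). Without KO replicate 3 the difference of Lmo2 minus Tal1 was 0.12.

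**Figure D3:**
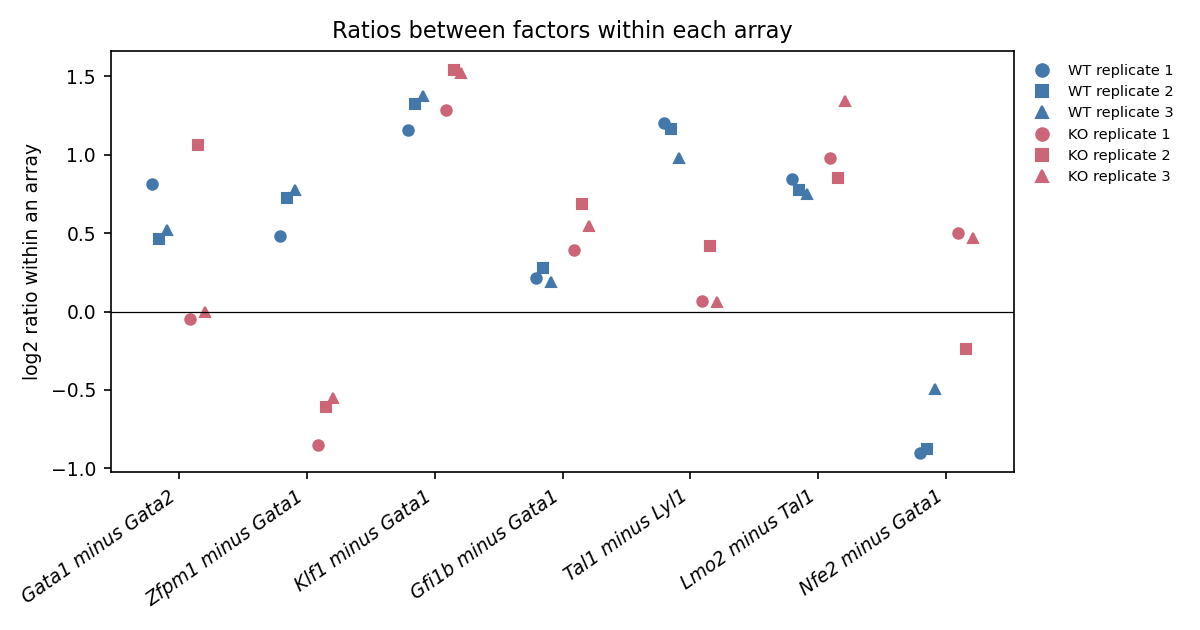
Log2 ratio of 2 factors within each array (vertical axis) for the 7 pairs tested; colour gives the genotype and the marker shape the replicate number. Zfpm1 minus Gata1 and Tal1 minus Lyl1 lie lower in every KO array than in any WT array, Nfe2 minus Gata1 lies higher, and Gata1 minus Gata2 and Klf1 minus Gata1 overlap.

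The KO arrays were not ordered alike for all factors. Gata1, Zfpm1, Tal1, Lmo2, Klf1 and Gfi1b, 6 of the 9, were highest in KO replicate 2, and Gata2, Lyl1 and Nfe2 in KO replicate 1. Some gaps were small, as for Lyl1 (10.97 in KO replicate 1 and 10.92 in KO replicate 2). Lmo2 spread over 0.16 in KO and 0.23 in WT. The list of erythroid targets averaged 9.85, 10.42 and 9.58 in KO replicates 1, 2 and 3, the same order as Gata1, Tal1, Klf1 and Gfi1b. The means of the megakaryocyte targets, complex partners, B cell markers and monocyte and macrophage markers had that order too, with a wider KO range for the last, 1.16, than for the erythroid targets, 0.834. The KO range of the complex partners was 0.07, less than the spread of their WT means, 9.58 to 9.67. Markers of mast cells, basophils and eosinophils averaged 9.17, 8.76 and 8.87, the order of Gata2, which the neutrophil markers and the paralogues shared. Markers of T cells averaged 10.40, 9.28 and 10.57, lowest in the array where Gata1 and Klf1 were highest. Neutrophil markers averaged 12.78, 10.11 and 10.74, highest in the array where Gata2, Lyl1 and Nfe2 were. With 3 arrays few orders are possible, and the part of these cell types in the factors' values was not tested.

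**Figure D4:**
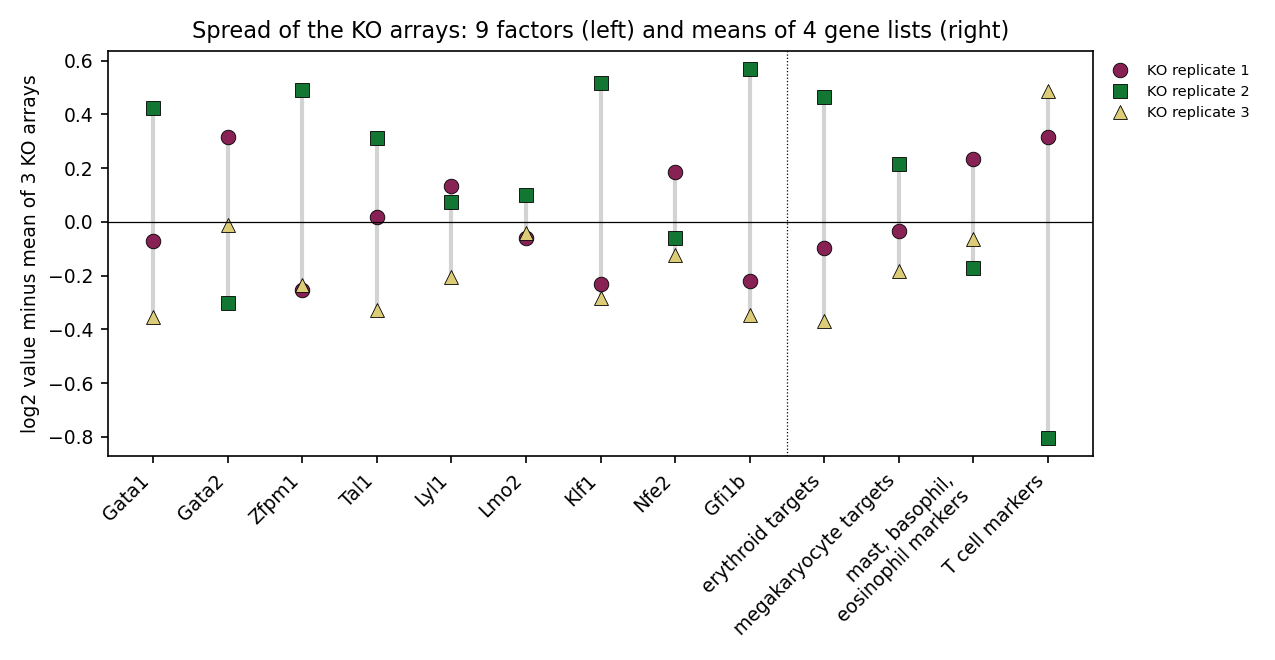
Log2 value of each KO array minus the mean of the 3 KO arrays (vertical axis), for the 9 factors on the left and the means of 4 gene lists on the right; colour and marker give the replicate. KO replicate 2 is the highest array for Gfi1b (0.57), Klf1 (0.52), Gata1 (0.42) and the erythroid targets (0.47) and the lowest for Gata2 (-0.30) and the T cell markers (-0.80).

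Transcripts of proteins that act with the factors moved in both directions. Of all genes 18.6% rose and 18.6% fell, with a median difference of -0.06. Of 21 genes of complex partners 9 rose and 3 fell, with a median difference of 0.14. The median was 0.21 when KO replicate 1 was dropped, 0.07 when KO replicate 2 was, and 0.50 when arrays were scaled to the hybridization controls. Only 7 of the 21 rose with quantile normalization repeated, or when any WT array or KO replicate 2 was dropped. The calls of Rcor1 (0.38) and Mta2 (0.40) ended in each of these, and both genes were chosen after their values were seen. Ctbp2, a corepressor that FOG1 binds, rose by 2.99 from 7.16 ± 0.25 (SD, n = 3) to 10.15 ± 0.04. Cbfa2t3, the ETO2 corepressor of the TAL1 complex, rose by 2.39, the E protein gene Tcf4 by 2.34 and Mafg, a small MAF partner of NFE2, by 1.30. Cbfb, the partner of RUNX1, fell by 0.65, the E protein gene Tcf12 fell by 0.52 and Mafk, another small MAF, fell by 0.43. Ldb1, the scaffold between LMO2 and distant sites, had a difference of -0.22 (limma adjusted p = 0.257), and was chosen after its values were seen. With hybridization-control scaling 14 of the 21 rose, beside 17309 of all 45037 probe sets, and the calls of Cbfb, Tcf12 and Mafk were lost. The call of Mafk was also lost without WT replicate 1 (-0.38) or KO replicate 3 (-0.38).

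Relatives of the factors moved in both directions. Of 15 paralogues 4 rose and 4 fell, beside 18.6% of all genes in each direction. Beside the -0.06 of all genes, their median was -0.10. Dropping WT replicate 3 gave a median of -0.15, and hybridization-control scaling turned its sign, to 0.27, with 4 that rose and 4 that fell. Of all 45037 probe sets 17309 rose and 2337 fell with that scaling. The gene of the T cell GATA factor, Gata3, fell by 1.45, from 9.50 ± 0.08 (SD, n = 3) to 8.05 ± 0.51, in the arrays where Gata1 and Gata2 rose. Klf2, which keeps T cells quiescent, fell by 1.93, Klf13 fell by 1.21 and Klf3 fell by 1.04, while Klf4, a myeloid and epithelial factor, rose by 2.76. Lmo1, a relative of Lmo2, rose by 2.14, Gfi1, the counterpart of Gfi1b in lymphoid and myeloid cells, by 0.76 and Nfe2l2, the NRF2 gene, by 0.63. The call of Gfi1 ended when WT replicate 1 (0.78) or 2 (0.72) or KO replicate 3 (0.70) was dropped. Gata4, Gata5 and Gata6 differed by -0.07, -0.17 and -0.21 and did not pass the threshold, with WT means of 4.93, 4.97 and 5.84 beside a median of 5.77 over probe sets; they were chosen after their values were seen.

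Of 11 other regulators of these and neighbouring lineages 6 rose and 2 fell, beside 18.6% of all genes in each direction. Their median was 1.44. Erg, an ETS factor of stem cells and megakaryocytes, rose by 3.90, Cebpa, the granulocyte regulator, by 3.40, Spi1, which encodes PU.1, an antagonist of GATA1, by 3.03, and Bcl11a, a repressor of embryonic globin genes, by 2.41. Ikzf1, the lymphoid factor Ikaros, fell by 0.72 and Fli1, an ETS factor of megakaryocytes and T cells, fell by 0.56. Hybridization-control scaling ended both calls, and with it 9 of the 11 rose, beside 17309 of all 45037 probe sets. The call of Fli1 also ended when WT replicate 1 (-0.52) or 3 (-0.54) or KO replicate 3 (-0.54) was dropped.

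Among 20 measured genes known as targets of these factors in red cells 17 rose and 1 fell, beside 18.6% of all genes in each direction. Their median was 2.10. Slc4a1, the band 3 anion exchanger, rose by 4.81, Epb42, protein 4.2 of the red cell skeleton, by 4.14, and Rhag and Rhd of the Rh complex by 3.60 and 2.95. The alpha globin gene Hba-a2 fell by 0.50 at a probe set that averaged 5.19 in WT and 4.68 in KO, both below the median of 5.77. Hybridization-control scaling ended that call (-0.14), as did dropping WT replicate 1 (-0.53) or 3 (-0.40) or KO replicate 1 (-0.42) or 3 (-0.51). Of 16 measured megakaryocyte targets 9 rose and 1 fell, beside the same shares of all genes. Their median was 1.24. Selp, the adhesion receptor of platelets and endothelium, rose by 3.47, the platelet chemokine gene Pf4 by 2.66, the integrin gene Itga2b by 2.08 and Vwf, the von Willebrand factor gene, by 1.76. The integrin gene Itgb3 fell by 0.94, but not when WT replicate 2 was dropped (-0.84) or arrays were scaled to the hybridization controls (-0.58). With that scaling 12 of the 16 rose, beside 17309 of all 45037 probe sets.

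**Figure D5:**
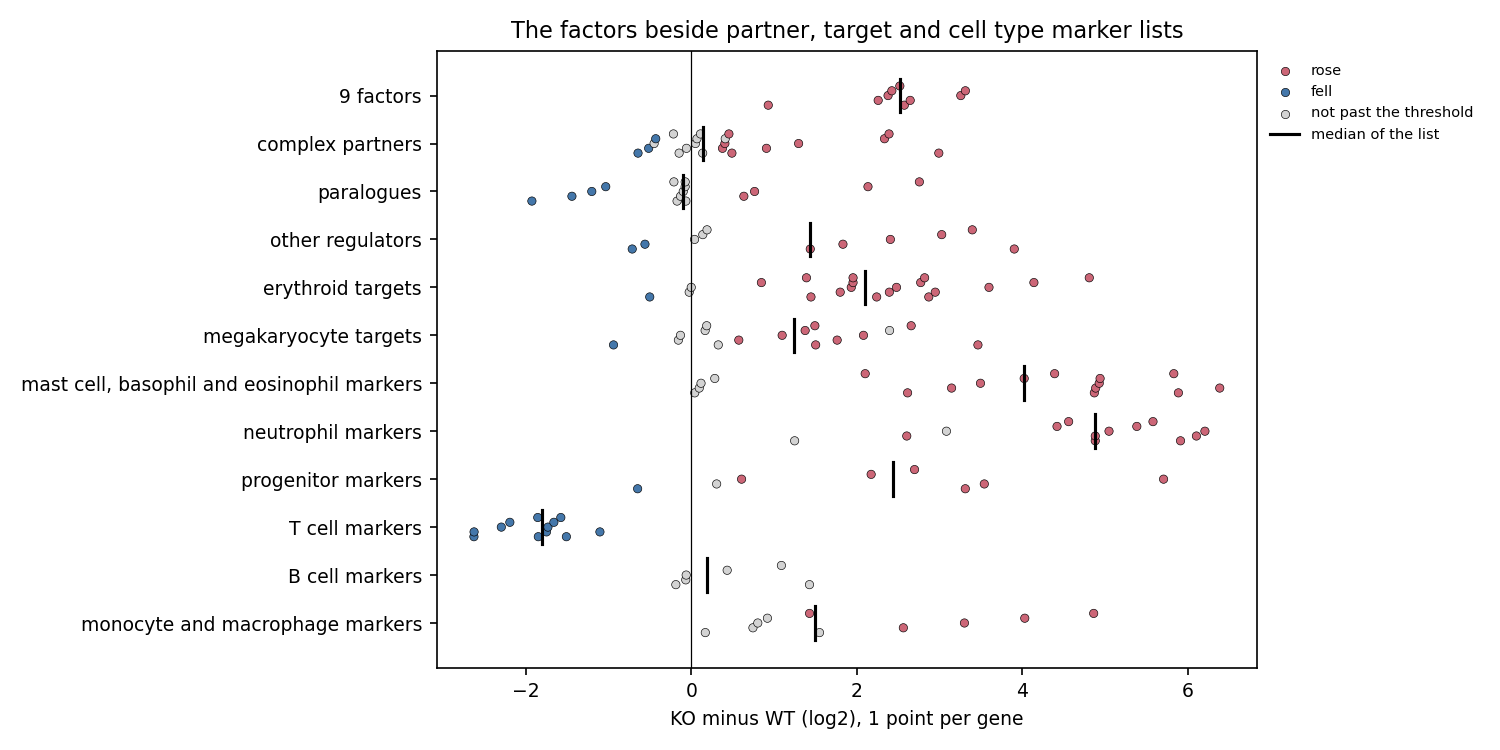
KO minus WT difference on the log2 scale (horizontal axis) of each measured gene, 1 point per gene, for the 9 factors and 11 gene lists; red points rose, blue points fell, grey points did not pass the threshold and the black bar is the median. The factors lie between 0.93 and 3.31, the T cell markers lie below 0 and the complex partners spread around a median of 0.14.

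Many markers of other blood cells rose with the factors, but no measured B cell marker passed the threshold and the T cell markers fell. The part of these cells in the factors' rise was not tested. Over all genes 18.6% rose and 18.6% fell, the shares to set beside each count here. Among markers of mast cells, basophils and eosinophils, 13 of the 17 measured rose, with array means of 5.46 to 5.58 in WT and 8.76 to 9.17 in KO. The eosinophil peroxidase gene Epx rose by 6.39, the protease gene Mcpt1 by 5.89, Prg2, an eosinophil granule gene, by 5.83 and Fcer1a, a chain of the IgE receptor, by 4.94. Of these markers Tpsab1, Ccr3 and Il5ra stayed below the median level of 5.77 in KO, at 4.65, 4.04 and 4.67; they were chosen after their values were seen. All 17 rose under hybridization-control scaling, beside 17309 of all 45037 probe sets. That scaling raised every difference by the same amount. Of 13 measured neutrophil markers 11 rose, with array means of 6.26 to 7.23 in WT and 10.11 to 12.78 in KO. S100a9, S100a8, Elane and Lcn2 rose most, by 6.21, 6.11, 5.92 and 5.58. The WT arrays spread widely for S100a9 and S100a8 (SD 2.23 and 2.16, n = 3), as did the KO arrays for Lcn2 (SD 2.55). For Elane the KO SD was 0.20. The call of Ltf (4.42) ended with the intensity trend and robust fitting, or when any WT array or KO replicate 3 was dropped. Mmp8 (3.08) gained a call in several other alternatives. Ltf and Mmp8 were chosen after their values were seen. Of 8 measured progenitor markers 6 rose, with means of 6.58 to 6.61 in WT and 8.64 to 8.93 in KO. Cd34 rose by 5.71, Hoxa9 by 3.54, Meis1 by 3.31 and Angpt1 by 2.70, while Cd48 fell by 0.65. Dropping WT replicate 1, 2 or 3 (-0.69, -0.63 and -0.64) ended the call of Cd48, as did hybridization-control scaling (-0.28).

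Monocyte and macrophage markers rose for 5 of 10, beside 18.6% of all genes. Array means were 5.13 to 5.62 in WT and 6.81 to 7.97 in KO. The largest rises were those of Csf1r (4.87), Vcam1 (4.03), Cd14 (3.30) and Cd68 (2.56). The median of this list, 1.49, was 0.94 without KO replicate 2. With hybridization-control scaling 8 of the 10 rose, beside 17309 of all 45037 probe sets. None of 6 measured B cell markers passed the threshold in limma, and 1 of them had an unadjusted p below 0.05. Cd79b rose when KO replicate 2 (0.57) or 3 (1.48) was dropped and under hybridization-control scaling (1.45), and it was chosen after its values were seen. The B cell list means were 6.74 to 7.16 in WT and 6.94 to 7.65 in KO. The T cell markers averaged 11.97 to 12.01 in WT and 9.28 to 10.57 in KO. These levels are of different probe sets from those of the other lists and are not set against them. The largest falls were those of Cd247 (-2.63), Cd8b1 (-2.63), Lef1 (-2.30) and Cd5 (-2.20). The hybridization controls, spiked in by the assay, read 10.21 ± 0.10 in WT against 9.85 ± 0.06 in KO (SD, n = 3). Scaling to them raised the median difference of all probe sets from -0.08 to 0.29. The share of higher probe sets among those changed went from 47.2% to 88.1%. With that scaling 17309 of all 45037 probe sets rose. By list, 19 of 20 erythroid targets, 12 of 13 neutrophil markers and 7 of 8 progenitor markers rose. All 9 factors rose under the same scaling, by 1.30 for Zfpm1 to 3.68 for Lyl1. This scaling adds the same positive amount to every KO minus WT difference, so it could only enlarge the factors' rises.

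The genes with array profiles most like those of a factor were found by the root mean square difference over the 6 arrays after each probe set was centred on its mean. For Klf1 they were Reep6, Tspo2, Blvrb, Reps2 and Icam4, at 0.04 to 0.07 log2 units. For Gata1 they were Ctse, Ccnf, Ckap2, Cdca3 and Ube2c, at 0.05 to 0.08, and for Gata2 Alas1, Septin10, Stx3, Fut4 and Myo5a, at 0.08 to 0.14. Tspo2 and Icam4 are also among the erythroid targets, where they rose by 2.48 and 2.39. The genes given for Gata1 and Gata2 are not on that list. The likeness rests on 6 arrays and mostly on the difference between genotypes, and the genes were picked out of 18193.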

How the data were processed

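RNA of 6 T cell samples, 3 KO and 3 WT, was measured on Affymetrix 1-colour arrays after amplification with oligo(dT) and random primers, per the labels. The deposited values are log2 probe-set intensities from RMA, per the submitters' processing notes, which give no version. They were used as deposited, without a filter. Array medians were 5.70 to 5.77, and the number of arrays limits the precision. Pearson correlations across probe sets were at least 0.986 within a genotype and 0.940 to 0.965 between genotypes.

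Of 45101 probe sets 64 were array controls. The platform annotation gave 1 gene to 34945 of the others and several to 932, and did not list 9160; symbols were updated by Entrez ID through the GRCm38.p6 table. Probe sets were fitted together with genotype as the term in limma 3.58.1 (R 4.3.3; lmFit and eBayes, two-sided, Benjamini-Hochberg), which was tested on simulated data. The members, the 11 lists and the tests were chosen with earlier results of these data known. Of 164 list entries 149 matched a probe set with 1 gene.

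Named genes are the 9 factors, up to 4 genes per list with the largest differences past the threshold, the few that went against their list, and the 5 closest profiles of Gata1, Gata2 and Klf1. Among the paralogues, where 4 rose and 4 fell, all 8 are named. Others are marked where they appear.

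The fit was repeated with quantile normalization, median centring, and scaling to 18 hybridization control probe sets. It was also repeated with only probe sets at or above the median level of 5.77, and with an intensity trend and robust fitting. Other repeats used weighted arrays, a term for the replicate number, each array dropped in turn, and several probe sets of a gene averaged. The unaltered fit was also read at a threshold of 0.10. With an array dropped, a group of 2 borrowed its spread from both genotypes.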

Additional observations from a re-analysis of the deposited data

How the results depend on the processing

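The 9 factors kept their direction and their call in all 135 values under the 15 alternatives. Zfpm1 lay between 0.62 and 1.30 and Lyl1 between 3.24 and 3.68. Not all of these values could change. The threshold of 0.10 was read from the unaltered fit and could not end a call. Filtering by level, the intensity trend with robust fitting and the replicate term left the differences as they were, so only calls could change. Averaging probe sets changed the differences of Gata2 and Zfpm1 only. Zfpm1 came nearest to the threshold, with a limma adjusted p of 0.048 without WT replicate 1. Scaling to the hybridization controls changed the counts over all probe sets, from 6242 that rose and 6986 that fell to 17309 and 2337, and with it 11 member probe sets rose in place of 10; the cause was not tested. With the probe sets of a gene averaged, the ratio of Zfpm1 to Gata1 fell by 1.63 in place of 1.33, since the dimmer Zfpm1 probe set then enters. With the replicate number as a replicate block, 5296 probe sets rose and 5117 fell, and 9 factors rose. Same-numbered arrays deviated from their group means with correlations of 0.10, -0.24 and -0.20, so the numbers were not taken as pairs. RMA values carry no detection call, so whether a dim probe set measured its transcript is not known from them.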
